A study of Mus musculus with 10 samples.

Results

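The 36 genes of glycolysis and pyruvate use described here carry glucose into the cell, break it down to pyruvate, export lactate or control the entry of pyruvate into mitochondria. They were taken from a list of symbols, and 36 of 36 were found among the 27179 genes of the deposited count table. RNA came from regulatory T cells (Tregs) of C57BL/6 mice, sorted as cells positive for CD4, the T cell receptor beta chain and a Foxp3 YFP reporter. All animals carried Foxp3Cre-YFP, which makes Cre recombinase in cells that express Foxp3. Those with Foxp3Cre-YFP alone are called WT, and those that also carried floxed Maf alleles (Maffl/fl) are called Maf-KO. In the latter, the design removes Maf in Foxp3-expressing cells. Whether other cells of the animal keep it was not measured here. Maf encodes the transcription factor c-Maf. The gut samples are the colon and small intestine, and the groups were WT gut (2 libraries, replicates 1 and 3), Maf-KO gut (2, replicates 2 and 3), WT spleen (3) and Maf-KO spleen (3). The labels give no age and do not tie a replicate to 1 animal. The p-values therefore reflect how much these samples vary among themselves, which may be technical.

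Glycolysis turns glucose into pyruvate in the cytosol and yields ATP without oxygen. Lactate dehydrogenase then reduces pyruvate to lactate, which leaves through monocarboxylate carriers, or pyruvate enters mitochondria and feeds the tricarboxylic acid cycle through pyruvate dehydrogenase, which the Pdk kinases restrain. In T cells the pathway is known to be raised on activation through Myc, mTOR and hypoxia-inducible factor (HIF), whose alpha subunit Hif1a switches on many of the genes below when oxygen is low. Tregs are known to depend less on glycolysis than effector T cells and to use it when they proliferate or migrate.

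Libraries held 8567035 to 13983965 counts. Maf, the deleted gene, had 859 and 918 counts in WT gut and 7 and 3 in Maf-KO gut. The WT spleen counts were 337, 312 and 484 and those of Maf-KO spleen 2, 10 and 2. In every library the gene matched the label. Treg and T cell markers were present in all of them: mean Foxp3 was 119 to 193 CPM (read counts scaled to the normalised library total) over the 4 groups, and mean Cd3e 1009 to 1252 CPM. The 9 genes of this list summed to 11540 to 12740 CPM in gut and 5976 to 6779 CPM in spleen, with 3 called higher and 1 lower in WT gut and 5 higher in Maf-KO gut. Markers of other cells also moved with tissue. The summed level of 6 plasma cell genes was 1687 to 7118 CPM in gut and 254 to 433.4 CPM in spleen, 7 B cell genes summed to 57.1 to 85.8 CPM in gut and 156 to 430 CPM in spleen, and 9 gut epithelium genes to 142 to 179 and 35.5 to 71.2 CPM. The 9 myeloid genes summed to 84.6 to 252 CPM in gut and 133 to 857 CPM in spleen, highest in WT spleen replicate 3. Of these 9 genes, 2 were called lower in WT gut than in spleen, and 1 higher and 2 lower in Maf-KO gut. The neutrophil gene S100a8 was at 0 in both Maf-KO gut libraries. In all, 2 of the 9 genes were at 0 in each Maf-KO gut library and also in WT gut replicate 1. Acinar genes of the pancreas summed to 114 and 20.2 CPM in WT gut and at most 7.26 CPM in the other libraries. The part of these cells in the results below was not tested except where a value is given, and in bulk RNA fewer cells of a type and less RNA per cell cannot be told apart.

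Of the 36 genes, 35 passed the filter on low counts. Pdk4, a kinase of pyruvate dehydrogenase, had 0 counts in all 10 libraries, which allows up to 0.215 to 0.350 CPM, depending on the library. Levels of different genes were compared as FPKM, which are scaled to gene length and library total, from the log2 values the authors deposited. By these deposited values Ldha, which makes lactate, was the most abundant of these genes in all 4 groups, with group means of 519.5 to 584 FPKM. Hif1a, Aldoa and Pkm followed, at 386, 357 and 277 FPKM in WT gut and 193, 249.9 and 251.5 FPKM in WT spleen. At the other end, Hk3 had group means of 0.265 to 1.16 FPKM, Pfkfb2 0.665 to 0.998 and Eno2 0.691 to 1.26.

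**Figure D1:**
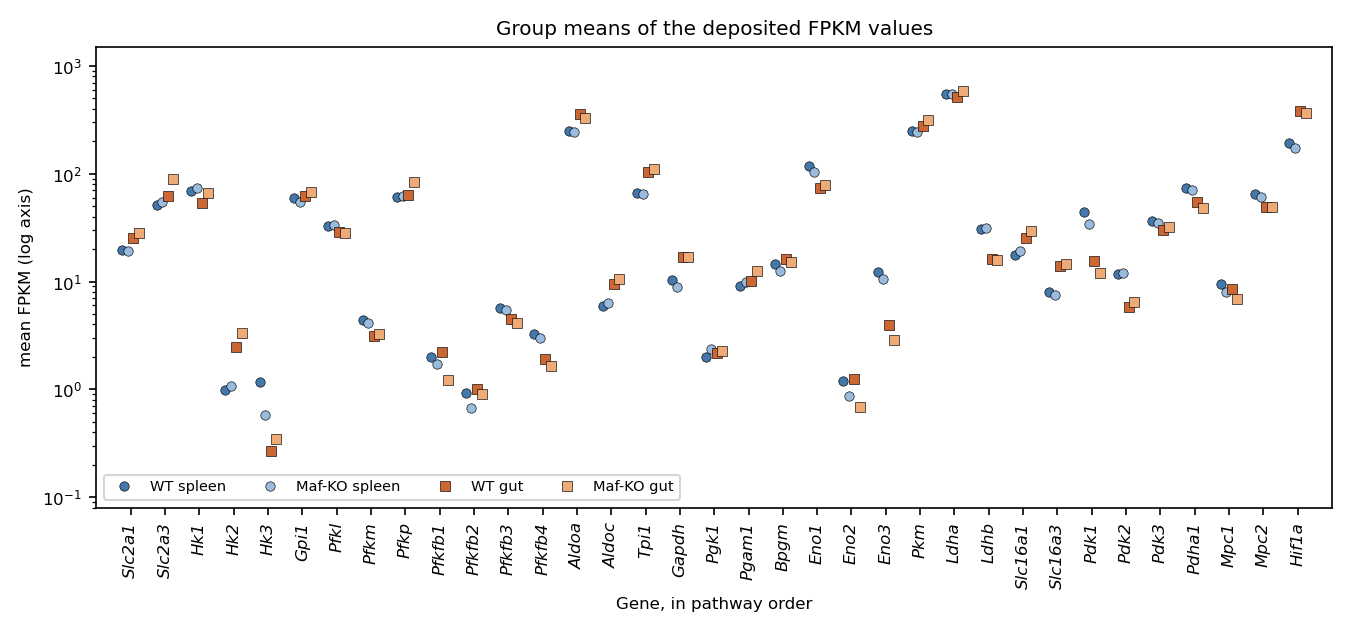
Mean FPKM (log axis) of 35 genes in pathway order, 1 point per group (circles for spleen, squares for gut). Levels span from 0.265 FPKM (Hk3, WT gut) to 584 FPKM (Ldha, Maf-KO gut), and Pdk4 is not shown because it had no counts.

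Several of these genes have near-copies in the genome, which bears on their levels. In a comparison of 50-base words with all other transcripts of the GENCODE M21 annotation, 68.0% of the words of Pgk1 transcripts also occurred in another gene, mostly pseudogenes, as did 58.4% for Gapdh, 49.5% for Eno1 (with its copy Eno1b the closest), 41.5% for Pgam1, 23.7% for Pkm and 10.4% for Ldha. The share was 22.9% for Pfkfb2, 21% for Ldhb, 18.6% for Gpi1 and 14.8% for Mpc1. Gapdh, one of the most abundant transcripts in most cells, was at 8.99 to 16.8 mean FPKM here, and Pgk1 at 1.996 to 2.35. How reads that fit several places were counted is not given in the sources used here, so the levels of Gapdh, Pgk1, Pgam1 and Eno1 are uncertain, and the part of shared sequence in their values was not tested. Hk2, Slc2a1, Slc2a3, Pfkp, Slc16a1, Slc16a3, Pdk1 and Eno3 shared no word with another gene.

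Tregs of the gut were compared with Tregs of the spleen first, since this is where the genes differed. In WT, 8 of the 35 genes were higher in gut and 5 lower, tested by the quasi-likelihood test of edgeR with p-values adjusted over all 13214 genes tested. Of all genes tested, 28% were called in that comparison, 14.7% higher and 13.3% lower. In Maf-KO, 15 of the 35 were higher and 4 lower, where 28.5% of all genes were called, 14.4% higher and 14.1% lower. The median log2 fold change of the 35 was 0.31 in WT and 0.21 in Maf-KO, beside -0.032 and -0.020 over all genes. The 2 comparisons share no library. Of the 13 genes called in WT, 12 were called in the same direction in Maf-KO, 92.3% of the WT calls and 63.2% of the 19 Maf-KO calls. Over all genes the shares were 76.3% and 74.9%. Not called were 22 of the 35 in WT and 16 in Maf-KO. The called genes from glucose uptake to glyceraldehyde 3-phosphate dehydrogenase were higher in gut in each genotype, as was Hif1a. Those of later steps went both ways. Slc16a1 was higher in both genotypes, and Pkm, Pgam1, Bpgm and Slc16a3 in Maf-KO, whereas Eno3, Ldhb, Pdk1 and Pdk2 were lower in both and Eno1 in WT.

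Both counts rest on few libraries and on the normalisation. With the title number that links gut and spleen samples as a replicate block, 14 genes were higher and 5 lower in WT, and 15 higher and 5 lower in Maf-KO. Without either WT gut replicate the WT count fell from 13 to 7, and without Maf-KO gut replicate 2 the Maf-KO count fell from 19 to 11. The genes called lower fell from 5 to 0 without WT gut replicate 1 and to 1 without WT gut replicate 3 or WT spleen replicate 2, and from 4 to 0 without Maf-KO gut replicate 2, while those called higher in Maf-KO fell from 15 to 9 without Maf-KO gut replicate 3. Gut libraries had TMM factors of 0.887 to 0.912 and spleen libraries 1.06 to 1.12. Without these factors the median of all genes shifted to -0.301 (WT) and -0.277 (Maf-KO), the share of higher genes among all calls went from 52.4% to 25.2% and from 50.5% to 25.1%, and the 35 genes split into 6 higher and 7 lower in WT and 9 higher and 6 lower in Maf-KO. All directions below are relative to the TMM scale. Hk2, Hif1a, Gapdh, Aldoa and Tpi1 were called higher in both genotypes under each of the 19 alternatives tried.

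**Figure D2:**
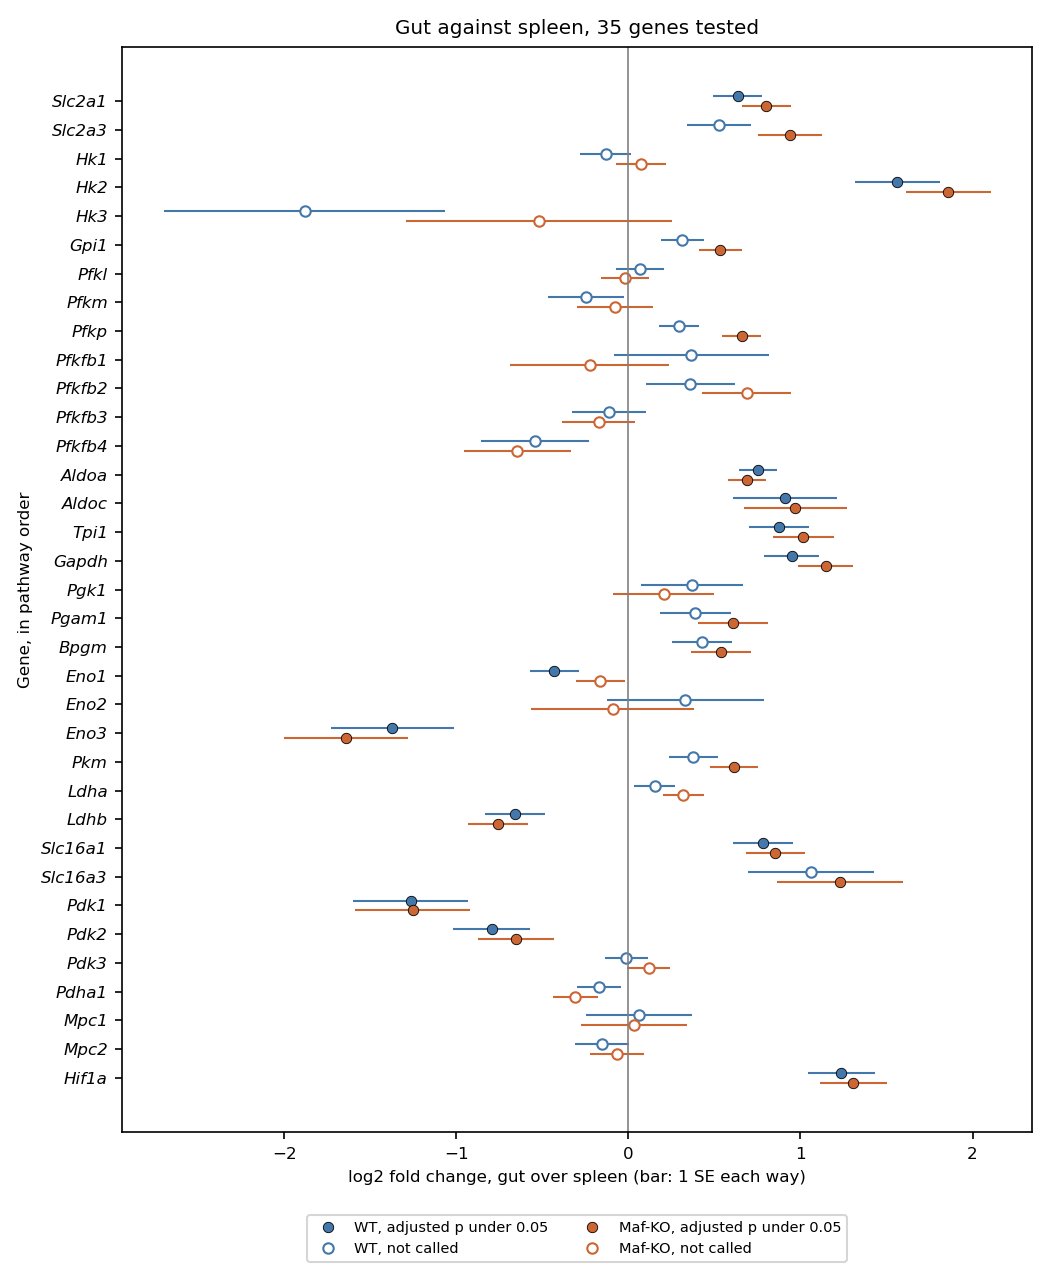
Log2 fold change of gut over spleen for 35 genes in pathway order, in WT (blue) and Maf-KO (orange), with bars of 1 SE each way. Filled points passed an adjusted p of 0.05, and the largest called changes are those of Hk2 (1.56 and 1.86) upward and Eno3 (-1.37 and -1.64) downward.

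The glucose carriers were called higher in gut, except Slc2a3 in WT. Slc2a1, the carrier GLUT1 that is raised on T cell activation, was at 65.1 and 74.6 CPM in WT gut and 41.8, 50.03 and 43.0 CPM in WT spleen. In Maf-KO it was at 71.4 and 86.2 CPM in gut and 40.4, 44.4 and 50.8 CPM in spleen. Gut and spleen libraries did not overlap in either genotype. Its log2 fold change was 0.64 (SE 0.143, adjusted p 0.00841) in WT and 0.80 (SE 0.142, adjusted p 0.00245) in Maf-KO, but without WT gut replicate 3 the WT call was lost, as it was without TMM factors (highest adjusted p 0.0641). Slc2a3, the high-affinity carrier GLUT3, was at 228 and 294 CPM in WT gut and 137, 215 and 193 CPM in WT spleen. In Maf-KO the values were 379 and 378 CPM in gut and 174, 205 and 213 CPM in spleen. All 4 gut libraries lay above all 6 spleen libraries. The change was called in Maf-KO (log2 0.94, SE 0.185, adjusted p 0.00435) and not in WT (log2 0.52, SE 0.186, adjusted p 0.0608), where 5 of the 19 alternatives called it, among them DESeq2 (log2 0.55, adjusted p 0.0267) and the replicate block (log2 0.67, adjusted p 0.000755).

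Of the first enzymes, Hk2 stood out. Hk2, the inducible hexokinase that traps glucose in the cell, was at 15.1 and 13.7 CPM in WT gut and 4.53, 4.93 and 5.12 CPM in WT spleen. The Maf-KO values were 17.1 and 21.9 CPM in gut and 5.75, 3.74 and 6.62 CPM in spleen. The lowest gut library was thus above 13 CPM and the highest spleen library below 7 CPM. The log2 fold change was 1.56 (SE 0.250, adjusted p 0.00140) in WT and 1.86 (SE 0.247, adjusted p 0.000492) in Maf-KO. Hk1, the constitutive hexokinase and by far the more abundant per length, was not called (log2 -0.13 and 0.073), except as lower in WT gut without TMM factors (log2 -0.40, adjusted p 0.0393) and on log2 FPKM (log2 -0.38, adjusted p 0.0406). Hk3, the hexokinase of myeloid cells, was at 0.502 and 1.30 CPM in WT gut and 1.96, 1.69 and 6.55 CPM in WT spleen, the last in the library with the highest myeloid sum. It was not called (log2 -1.88, adjusted p 0.115 in WT) except with the title number as a block, fixed (log2 -2.19, adjusted p 0.00487) or random (adjusted p 0.0362).

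Phosphofructokinase commits sugar to glycolysis, and Pfkp is its platelet-type subunit. Pfkp was at 258 and 276 CPM in WT gut and 194, 234 and 226 CPM in WT spleen. In Maf-KO gut it reached 362 and 353 CPM, against 245, 215 and 219.9 CPM in Maf-KO spleen. No gut value overlapped a spleen value of the same genotype, and the 2 Maf-KO gut libraries were the highest of the 10. The change was called in Maf-KO (log2 0.66, SE 0.113, adjusted p 0.00206) and not in WT (log2 0.29, SE 0.114, adjusted p 0.0797), where 3 of 19 alternatives called it: DESeq2 (log2 0.32, adjusted p 0.0364), the fixed replicate block (log2 0.35, adjusted p 0.0181) and the random one (log2 0.33, adjusted p 0.00986). Gpi1, the isomerase between hexokinase and phosphofructokinase, was also called in Maf-KO and not in WT, with log2 0.53 in Maf-KO (adjusted p 0.0105, and up to 0.0826 without TMM factors, on log2 FPKM or without either Maf-KO gut library) and 0.31 in WT (adjusted p 0.0903, with the block 0.0244, and called in 3 of 19 alternatives). Pfkl and Pfkm, the liver and muscle subunits, were not called, with log2 values between -0.25 and 0.070. None of the 4 Pfkfb genes, whose enzymes set the activator fructose 2,6-bisphosphate, was called in either genotype. Their log2 values ran from -0.64 (Pfkfb4, Maf-KO) to 0.69 (Pfkfb2, Maf-KO, adjusted p 0.0722), and Pfkfb2 was called in Maf-KO with the title number as a random effect (adjusted p 0.0206) and without WT spleen replicate 1 (adjusted p 0.0412).

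From aldolase to glyceraldehyde 3-phosphate dehydrogenase, every step had a gene that was higher in gut in both genotypes. Aldoa, the main aldolase, was at 702 and 675 CPM in WT gut and 393, 395 and 437 CPM in WT spleen. Maf-KO libraries had 633 and 662 CPM in gut and 439, 396 and 370.7 CPM in spleen. The groups were far apart, and log2 was 0.75 (SE 0.110, adjusted p 0.000816) in WT and 0.69 (SE 0.110, adjusted p 0.00138) in Maf-KO. Aldoc, the brain-type aldolase, was at 20.0 and 14.0 CPM in WT gut against 7.73, 10.7 and 8.54 CPM in WT spleen, and at 17.3 and 21.2 CPM in Maf-KO gut against 13.2, 6.28 and 9.94 CPM in Maf-KO spleen. It was called in WT (log2 0.91, SE 0.302, adjusted p 0.0469) and Maf-KO (log2 0.97, SE 0.299, adjusted p 0.0352), but in only 9 and 12 of the 19 alternatives, and the WT call was lost without any 1 of the 5 WT libraries.

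Tpi1, triosephosphate isomerase, was at 171 and 179 CPM in WT gut and 91.6, 92.1 and 103 CPM in WT spleen. In Maf-KO it was at 181 and 204 CPM in gut and 123, 86.3 and 76.0 CPM in spleen. Spleen values stayed below all gut values, and log2 was 0.88 (SE 0.175, adjusted p 0.00476) in WT and 1.02 (SE 0.175, adjusted p 0.00210) in Maf-KO. Gapdh, which passes electrons to NAD, was at 20.6 and 23.1 CPM in WT gut, 11.6, 12.01 and 10.3 CPM in WT spleen, 22.2 and 22.3 CPM in Maf-KO gut and 9.43, 11.2 and 9.45 CPM in Maf-KO spleen. Every gut library had more of it than any spleen library, with log2 0.95 (SE 0.162, adjusted p 0.00207) in WT and 1.15 (SE 0.162, adjusted p 0.000706) in Maf-KO. The shared words given above apply to these values.

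Below Gapdh the calls were mixed. Pkm, the pyruvate kinase of T cells, was at 830 and 691 CPM in WT gut and 564, 612 and 579.6 CPM in WT spleen, and at 798 and 974 CPM in Maf-KO gut and 658, 551 and 529 CPM in Maf-KO spleen. It was called in Maf-KO (log2 0.61, adjusted p 0.00942, with the call lost without TMM factors, on log2 FPKM and without Maf-KO gut replicate 3) and not in WT (log2 0.38, adjusted p 0.0722) except in DESeq2 (log2 0.40, adjusted p 0.0238) and with the replicate block, fixed (log2 0.41, adjusted p 0.0333) or random (log2 0.39, adjusted p 0.0160). The mutases Pgam1 (log2 0.61, adjusted p 0.0477) and Bpgm (log2 0.54, adjusted p 0.0425), of which the latter makes 2,3-bisphosphoglycerate, were called in Maf-KO alone, each in 8 of 19 alternatives. In WT, Bpgm was called with the fixed (log2 0.43, adjusted p 0.0330) and the random block. Pgk1, which makes the first ATP of the pathway, was not called, at 2.28 to 4.71 CPM in the 10 libraries. The test of the difference between genotypes called none of these genes, as given below.

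Among the enolases, which make phosphoenolpyruvate, Eno3 went the other way in both genotypes. Eno3, the muscle-type enolase, was at 5.78 and 6.98 CPM in WT gut and 19.8, 19.2 and 10.4 CPM in WT spleen. In Maf-KO it was at 4.44 and 4.95 CPM in gut and 12.3, 11.0 and 20.7 CPM in spleen. Every gut library was lower than every spleen library, and the spleen libraries themselves spread from 10.4 to 20.7 CPM. Its log2 fold change was -1.37 (SE 0.359, adjusted p 0.0176) in WT and -1.64 (SE 0.362, adjusted p 0.00775) in Maf-KO. The WT call was lost without WT gut replicate 1 or 3 or WT spleen replicate 2 (adjusted p up to 0.119), and the Maf-KO call without Maf-KO gut replicate 2 (adjusted p 0.0585). Eno1, the enolase of most cells and the most abundant here, was at 133 and 145 CPM in WT gut and 176, 224 and 163 CPM in WT spleen, which gave log2 -0.43 (SE 0.144, adjusted p 0.0493). That call was lost with the replicate block (log2 -0.28, adjusted p 0.0590) and in 13 of 19 alternatives in all, and in Maf-KO, at 142 and 159 CPM in gut and 156, 176 and 174 CPM in spleen, the gene was not called (log2 -0.16, adjusted p 0.431) except without TMM factors and on log2 FPKM (adjusted p 0.0354 and 0.0344). Eno2, the neuronal form, was not called and stayed at 1.101 to 3.56 CPM.

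At the branch to lactate, the carriers were called higher in gut, except Slc16a3 in WT, while Ldha was not called. Ldha was at 1160 and 958 CPM in WT gut and 937, 976 and 946 CPM in WT spleen, and at 1151 and 1275 CPM in Maf-KO gut and 990, 1019 and 909.5 CPM in Maf-KO spleen. The WT groups overlapped and the Maf-KO groups did not. Its log2 fold change was 0.15 (SE 0.120, adjusted p 0.381) in WT and 0.32 (SE 0.1195, adjusted p 0.0726) in Maf-KO, and in WT the sign turned without TMM factors (-0.11). It was called in Maf-KO by DESeq2 (log2 0.34, adjusted p 0.0188) and when the title number entered as a random effect (log2 0.33, adjusted p 0.0160). Ldhb, the heart-type subunit that favours the use of lactate, was at 19.6 and 25.0 CPM in WT gut and 36.6, 33.9 and 34.9 CPM in WT spleen. Maf-KO libraries had 19.1 and 24.4 CPM in gut and 41.4, 31.8 and 37.3 CPM in spleen. The 10 libraries separated by tissue. It was lower in gut by log2 -0.66 (SE 0.174, adjusted p 0.0184) in WT and -0.76 (SE 0.173, adjusted p 0.00904) in Maf-KO, calls that were lost without WT gut replicate 1 (adjusted p 0.141) and Maf-KO gut replicate 2 (adjusted p 0.0851), respectively.

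Slc16a1, the lactate carrier MCT1, was at 122 and 117.5 CPM in WT gut and 72.0, 84.3 and 52.2 CPM in WT spleen, and at 141 and 138.5 CPM in Maf-KO gut and 72.3, 72.9 and 86.3 CPM in Maf-KO spleen. No spleen library reached a gut value. The log2 fold change was 0.78 (SE 0.172, adjusted p 0.00763) in WT and 0.85 (SE 0.171, adjusted p 0.00472) in Maf-KO, with the WT call lost without WT gut replicate 1 (adjusted p 0.0505). Slc16a3, the export carrier MCT4, was at 39.8 and 36.7 CPM in WT gut and 13.0, 14.1 and 28.1 CPM in WT spleen. In Maf-KO it was at 36.9 and 44.4 CPM in gut and 26.0, 13.2 and 12.9 CPM in spleen. All gut values exceeded all spleen values, among which 1 library of each genotype (WT replicate 3, Maf-KO replicate 1) lay well above the other 4. It was called in Maf-KO (log2 1.23, SE 0.366, adjusted p 0.0309) and not in WT (log2 1.06, SE 0.367, adjusted p 0.0554), where 7 of 19 alternatives called it and the replicate block gave log2 0.97 and adjusted p 0.0180.

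Of the kinases that switch off pyruvate dehydrogenase, Pdk1 and Pdk2 were lower in gut. Pdk1, itself a known HIF target, was at 89.3 and 78.4 CPM in WT gut and 234.5, 226 and 144 CPM in WT spleen. The Maf-KO values were 49.7 and 83.9 CPM in gut and 127.5, 121.5 and 229 CPM in spleen. The spleen libraries fell into high values (WT replicates 1 and 2, Maf-KO replicate 3) and lower ones, the same split as for Eno3, and all were above the gut libraries. The log2 fold change was -1.27 (SE 0.333, adjusted p 0.0180) in WT and -1.25 (SE 0.333, adjusted p 0.0189) in Maf-KO. The WT call was lost without WT gut replicate 1 or 3 or WT spleen replicate 2 (adjusted p up to 0.0982), and the Maf-KO call without Maf-KO gut replicate 2 (adjusted p 0.142).

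Pdk2 was at 14.95 and 12.5 CPM in WT gut and 23.9, 27.4 and 20.1 CPM in WT spleen, and at 12.9 and 18.7 CPM in Maf-KO gut and 28.9, 21.8 and 23.8 CPM in Maf-KO spleen. Gut and spleen did not overlap. It was called in WT (log2 -0.79, SE 0.224, adjusted p 0.0242) in 15 of 19 alternatives and in Maf-KO (log2 -0.65, SE 0.219, adjusted p 0.0486) in 8 of 19. Pdk3 was not called (log2 -0.012 and 0.12) and stayed at 56.7 to 71.4 CPM. Pdha1, the catalytic subunit that these kinases phosphorylate, was not called (log2 -0.17 and -0.31). As lower in gut it was called in 5 of 19 alternatives in Maf-KO, among them the replicate block (log2 -0.40, adjusted p 0.00811), and in 2 in WT, without TMM factors and on log2 FPKM (adjusted p 0.0239 and 0.0315). Mpc1 and Mpc2, the subunits of the mitochondrial pyruvate carrier, were not called either, with log2 values from -0.15 to 0.062.

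Hif1a, the regulator in the list, was among the most different of the 35. It was at 1867 and 2028 CPM in WT gut and 672, 750.1 and 1055 CPM in WT spleen. In Maf-KO it was at 1791 and 1942 CPM in gut and 896, 669 and 699 CPM in spleen. Gut libraries sat far above spleen libraries, of which WT replicate 3 was the highest. The log2 fold change was 1.24 (SE 0.195, adjusted p 0.00130) in WT and 1.31 (SE 0.195, adjusted p 0.000955) in Maf-KO.

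**Figure D3:**
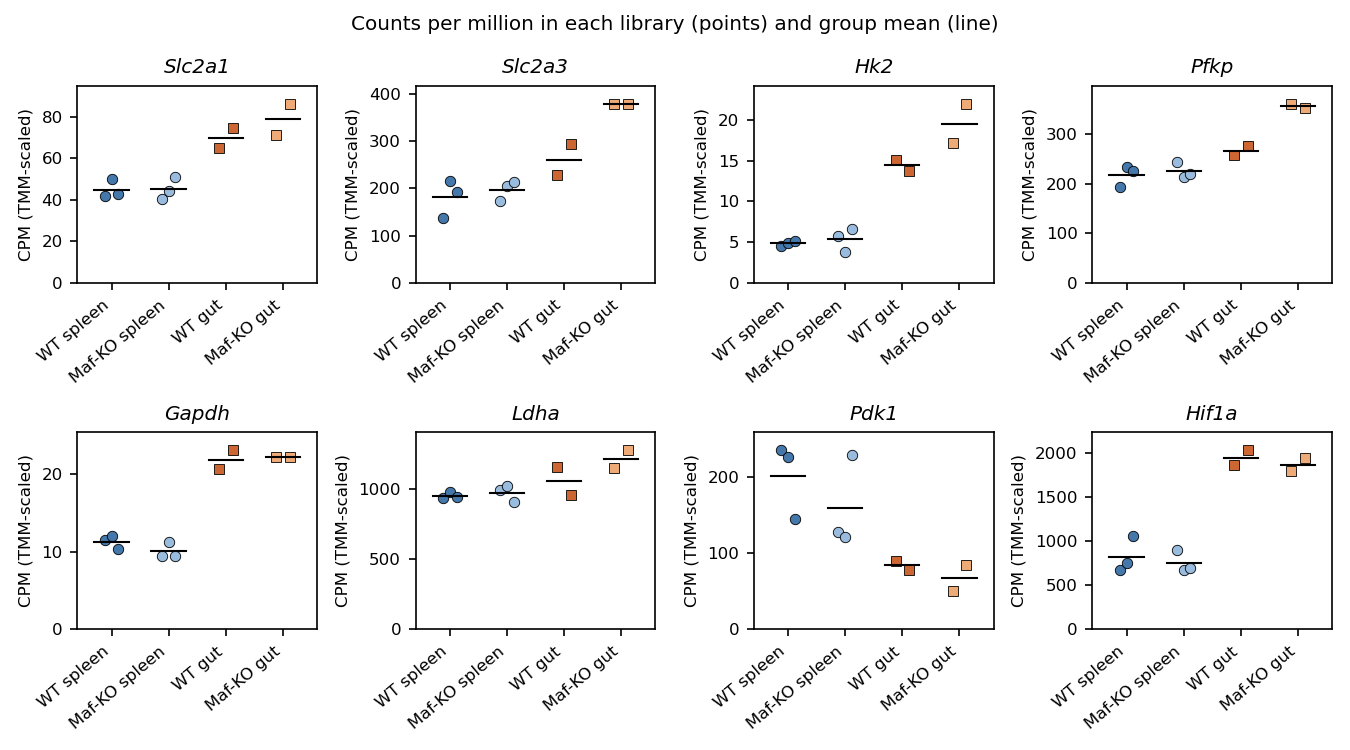
CPM of 8 genes in each of the 10 libraries (circles for spleen, squares for gut) with the group mean as a line, linear axes from 0. Slc2a1, Slc2a3, Hk2, Pfkp, Gapdh and Hif1a separate by tissue upward and Pdk1 downward, whereas Ldha in WT gut (1160 and 958 CPM) overlaps WT spleen. Of these, Slc2a3, Pfkp and Ldha were not called in WT.

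In all, the 35 genes summed to 6659 to 7444 CPM in gut and 4524 to 5033 CPM in spleen. Hif1a, a regulator and not an enzyme or carrier, held a large part of these sums. Its means were 1948 CPM in WT gut and 1867 CPM in Maf-KO gut, against 825.7 CPM in WT spleen and 754.5 CPM in Maf-KO spleen. The plasma cell genes also were higher in gut, with a sum of 7118 CPM in WT gut replicate 1 and 1687 CPM in Maf-KO gut replicate 3. Hk2 was at 15.1 CPM in the former and 21.9 CPM, its highest value, in the latter, whereas Aldoa was at 702 CPM, its highest value, in the former and 662 CPM in the latter. WT gut replicate 3 had a plasma cell sum of 2709 CPM, also above the 253.5 to 433.4 CPM of the spleen libraries. WT gut replicate 1 and Maf-KO gut replicate 3 also differ in genotype, which cannot be told apart from the plasma cell sum between them. The part of plasma cells in the values of these genes was not tested. None of the 14 cell cycle genes examined, among them Mki67 and Top2a, was called between gut and spleen in either genotype. Over all genes, 28% (WT) and 28.5% (Maf-KO) were called. The sums of these 14 genes spread widely within groups, from 567 to 895.6 CPM in WT gut and 469 to 804.7 CPM in WT spleen. In Maf-KO they ran from 643.8 to 816.7 CPM in gut and 476.1 to 821.4 CPM in spleen. The part of proliferation was not tested.

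Lists of related genes were counted beside the 28% (WT) and 28.5% (Maf-KO) of all genes called between the tissues, and no list was tested as a group. Of 8 HIF pathway regulators, 2 were higher and 1 lower in gut in each genotype. Epas1, which encodes HIF-2 alpha, had a mean of 152 CPM in WT gut and 6.33 CPM in WT spleen (log2 4.58, SE 0.440, adjusted p 6.1e-05), and log2 3.97 in Maf-KO (adjusted p 0.000151). Egln3, an oxygen sensor that marks HIF for degradation and is itself a HIF target, had log2 3.04 in WT and 2.73 in Maf-KO, whereas Hif1an, which inhibits HIF by hydroxylation, was lower in gut (log2 -0.63 and -0.58). Of 12 tested HIF targets outside glycolysis, 5 were higher in WT and 3 higher and 1 lower in Maf-KO, with medians of log2 0.64 and 0.25. Ero1l, which forms disulphide bonds in secreted proteins, had log2 1.74 and 1.32, and Mxi1, an antagonist of Myc, 2.25 and 2.40. Kdm3a, a histone demethylase, was the lower one in Maf-KO (log2 -0.33, adjusted p 0.0306).

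Of 10 regulators of glycolytic genes in T cells, 3 were higher and 1 lower in WT gut, and 3 higher and 3 lower in Maf-KO gut. Bhlhe40, a repressor induced on T cell activation, had a mean of 2283 CPM in WT gut and 87.9 CPM in WT spleen, with log2 4.70 in both genotypes (adjusted p 2.5e-05 in WT and 2.7e-05 in Maf-KO). Irf4, which drives effector Treg programs, had log2 2.01 and 1.62. Rheb, the activator of mTOR, was also higher in both (log2 1.09 and 0.92) and Trp53, which restrains glycolysis, lower (log2 -0.74 and -0.64). In Maf-KO, Prkaa1, the catalytic subunit of the energy sensor AMPK, was also lower (log2 -0.69, adjusted p 0.00176). Myc was not called in any comparison.

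In the pentose phosphate pathway 1 of 8 genes was called in each genotype, Taldo1 (log2 0.36 and 0.54 higher in gut). Of 16 genes of the tricarboxylic acid cycle, 2 were higher and 1 lower in WT and 4 higher in Maf-KO. Mdh1, cytosolic malate dehydrogenase, was higher in both (log2 0.69 and 0.59), as was Idh3b (0.45 and 0.54). Suclg1, a subunit of succinyl-CoA ligase, was lower in WT (log2 -0.33, adjusted p 0.0298). Among the other 7 genes of the pyruvate dehydrogenase complex and its phosphatases, Pdp1, which reverses the action of Pdk kinases, was higher in WT gut (log2 0.81, SE 0.171, adjusted p 0.00621). In Maf-KO, Pdhb was higher (log2 0.31, adjusted p 0.0492) and Pdhx lower (log2 -0.52, adjusted p 0.0459).

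Of 6 tested genes of gluconeogenesis and glycolytic brakes, Arrdc4, a relative of Txnip that lowers glucose uptake, was higher in gut in both genotypes (log2 0.94 and 0.85). Pcx, pyruvate carboxylase, was lower in WT gut (log2 -1.72, adjusted p 0.00496) and Pck2, the mitochondrial carboxykinase, in Maf-KO gut (log2 -0.74, adjusted p 0.0291). Of 21 further carriers and isozymes, 7 passed the filter and 1 was called, the intracellular glucose carrier Slc2a8 (log2 0.84 in both genotypes, adjusted p 0.0129 and 0.0131). Pgk2, the testis isozyme of phosphoglycerate kinase, had a mean of 0 CPM in all 4 groups.

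Because several of these genes are known HIF or Myc targets, the 250 bases upstream of their RefSeq start sites were read for the core of the HIF response element (ACGTG or GCGTG, on either strand) and for the E-box that Myc can bind (CACGTG, which holds ACGTG on both strands). RefSeq on GRCm38.p6 gave such a window for 35 of the 36 genes. These are not the 35 genes tested above: Slc2a3 is missing and Pdk4, which had no counts, is included. The core was present in 27 of 35 windows (77.1%), against 43.9% of 17492 windows of protein-coding genes, and CACGTG in 5 of 35, against 6.65%. The windows of the group were also richer in G and C, with a median of 59.2% against 55.2%. Among the genes called higher in gut in both genotypes 6 of 8 windows held the core, and among those called lower in both 4 of 4, so the presence of these letters did not separate the 2 directions. A match is a description of the letters and not a site shown to be bound. Printed below, 5′ to 3′ on the strand of the gene, are 4 windows of genes higher in gut and 2 of genes lower in gut, with the core and any E-box in capitals (CACGT and CACGC are the core read on the other strand). They lie at chr6:82774455-82774704 (minus strand, Hk2), chr4:119108495-119108744 (plus, Slc2a1), chr3:104638414-104638663 (plus, Slc16a1), chr12:73907617-73907866 (plus, Hif1a), chr2:71872974-71873223 (plus, Pdk1) and chr11:70656926-70657175 (plus, Eno3), each upstream of 1 RefSeq start site. RefSeq begins the genes Hif1a and Eno3 farther upstream, at 73901324 and 70653125, so these windows lie within the gene, and the window of Pdk1 reaches past the gene's first base at 71873215.
Hk2: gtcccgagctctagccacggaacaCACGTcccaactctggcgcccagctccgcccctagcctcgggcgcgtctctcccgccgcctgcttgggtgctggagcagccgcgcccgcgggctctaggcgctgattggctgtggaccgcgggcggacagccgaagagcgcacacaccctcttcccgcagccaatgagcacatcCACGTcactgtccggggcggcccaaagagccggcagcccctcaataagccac
Slc2a1: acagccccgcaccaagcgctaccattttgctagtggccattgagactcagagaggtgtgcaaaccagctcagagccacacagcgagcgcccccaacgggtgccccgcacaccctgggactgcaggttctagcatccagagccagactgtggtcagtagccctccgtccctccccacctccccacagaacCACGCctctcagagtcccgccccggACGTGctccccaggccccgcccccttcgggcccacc
Slc16a1: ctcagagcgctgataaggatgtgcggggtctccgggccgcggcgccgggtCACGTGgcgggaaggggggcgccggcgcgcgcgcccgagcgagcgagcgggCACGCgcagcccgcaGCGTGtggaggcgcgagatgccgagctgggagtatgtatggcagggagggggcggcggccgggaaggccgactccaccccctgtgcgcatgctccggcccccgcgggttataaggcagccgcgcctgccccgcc
Hif1a: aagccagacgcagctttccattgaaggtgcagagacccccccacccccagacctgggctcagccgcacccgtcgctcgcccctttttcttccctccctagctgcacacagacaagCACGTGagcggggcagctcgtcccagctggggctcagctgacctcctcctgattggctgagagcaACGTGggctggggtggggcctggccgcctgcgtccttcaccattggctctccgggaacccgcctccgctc
Pdk1: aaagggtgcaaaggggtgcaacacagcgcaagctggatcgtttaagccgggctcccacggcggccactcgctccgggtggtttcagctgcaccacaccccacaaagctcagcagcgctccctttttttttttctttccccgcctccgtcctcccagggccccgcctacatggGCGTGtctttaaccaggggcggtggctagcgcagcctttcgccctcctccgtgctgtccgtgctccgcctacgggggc
Eno3: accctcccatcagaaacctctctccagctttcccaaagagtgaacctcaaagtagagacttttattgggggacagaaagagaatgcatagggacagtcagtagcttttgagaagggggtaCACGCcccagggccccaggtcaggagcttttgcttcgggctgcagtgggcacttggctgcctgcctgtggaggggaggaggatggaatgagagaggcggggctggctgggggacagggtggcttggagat
Slc16a1 and Hif1a carry an E-box, and Pdk1 and Eno3, which were lower in gut, each carry 1 core.

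Where several isozymes catalyse 1 step, their shares of the family's FPKM were computed in each library and are given without a test. Hk2 made up 5.17 and 3.72% of hexokinase FPKM in WT gut and 1.53, 1.28 and 1.34% in WT spleen. The Maf-KO shares were 4.19 and 5.30% in gut against 1.41, 1.05 and 1.78% in spleen. Ldhb made up 2.47 and 3.76% of the Ldha and Ldhb sum in WT gut and 5.53, 4.94 and 5.24% in WT spleen, with 2.43 and 2.79% in Maf-KO gut and 5.89, 4.47 and 5.79% in Maf-KO spleen. For both families the gut and spleen ranges did not overlap, although Hk1 and Ldha remained the main forms throughout. Pdk1 held 31.1 and 28.7% of Pdk FPKM in WT gut and 51.4, 51.6 and 38.8% in WT spleen. In Maf-KO these shares were 18.96 and 28.2% in gut and 33.9, 36.6 and 53.4% in spleen. Pfkp held 67.1 and 65.4% of phosphofructokinase FPKM in WT gut, 72.7% in both Maf-KO gut libraries and 61.1 to 64.8% in the 6 spleen libraries. The share of Slc2a3 in the 2 glucose carriers was 68.1 to 77.5% in all 10 libraries, with no gap between the tissues, and that of Pfkfb3 in its family was 34.3 to 60.7%, the lowest and highest of which were the 2 WT gut libraries.

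**Figure D4:**
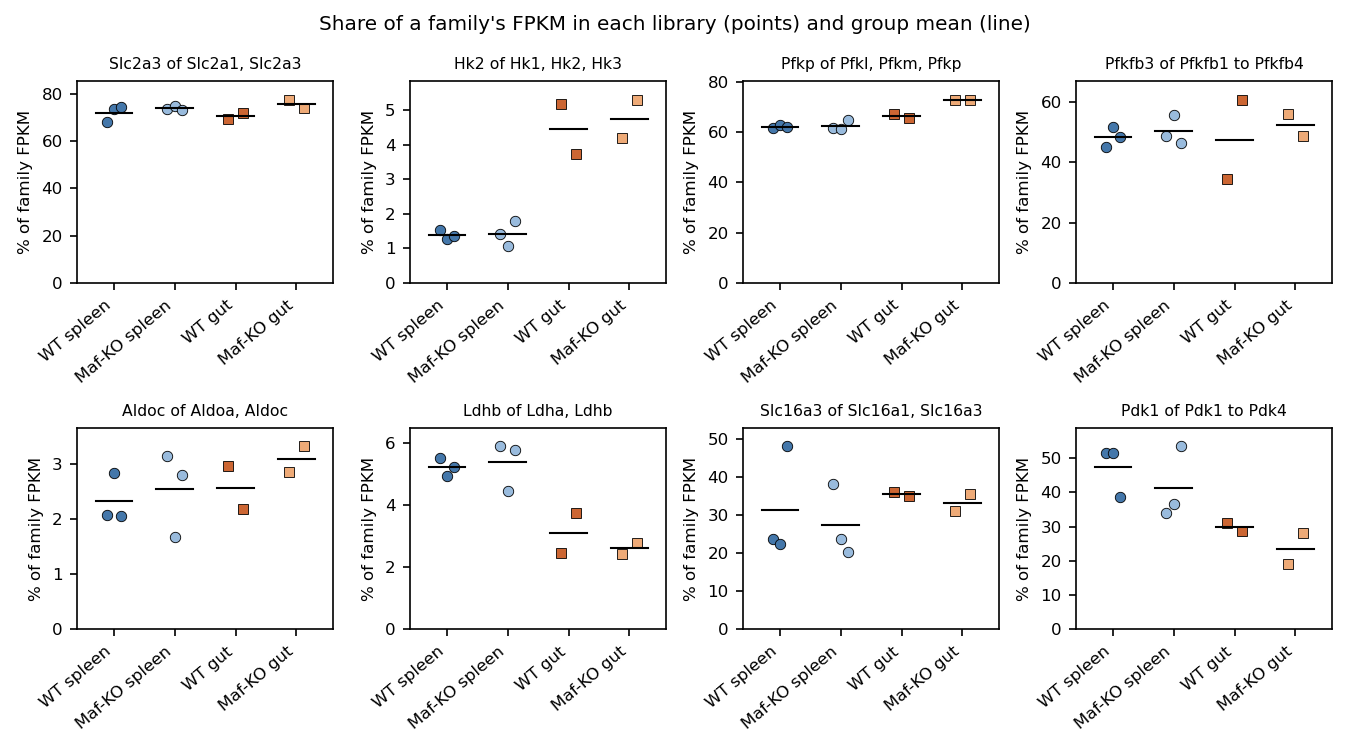
Share of a gene in the FPKM of its isozyme family, in percent, for each of the 10 libraries (circles for spleen, squares for gut) with the group mean as a line. Hk2 is higher and Ldhb and Pdk1 are lower in gut, and Pfkp is highest in the 2 Maf-KO gut libraries (72.7%).

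The role of c-Maf in Tregs is the question of the series, and Maf-KO was therefore compared with WT within each tissue. In gut, none of the 35 genes was called, where 0.151% of all genes (20 of 13214) were. At an unadjusted p under 0.05, 2 of the 35 passed and 1076 of all genes, and DESeq2 and limma-voom also called none of the 35. The median log2 fold change of the group was 0.088, beside -0.0035 over all genes. The Maf-KO libraries were above both WT libraries for 8 of the 35 genes and below them for 4, beside 17.4% and 18.8% of all genes tested, so the group was near the background. Pfkp had the smallest p: its 362 and 353 CPM in Maf-KO gut against 258 and 276 CPM in WT gut gave log2 0.42 (SE 0.125, unadjusted p 0.00730, adjusted p 0.395). Slc2a3 followed with log2 0.54 (SE 0.206, unadjusted p 0.0266, adjusted p 0.544). Both stayed uncalled under each of the 19 alternatives, where the adjusted p of Slc2a3 was 0.377 at the lowest.

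Hk1 was next, at 319 and 320 CPM in Maf-KO gut and 226 and 289 CPM in WT gut (log2 0.31, SE 0.162, adjusted p 0.669), then Hk2 (log2 0.44, SE 0.268, adjusted p 0.730). Slc2a1 had log2 0.17 (SE 0.157, adjusted p 0.831) and Ldha 0.20 (SE 0.132, adjusted p 0.765), with overlapping groups. Pdk1 had log2 -0.33 (SE 0.354, adjusted p 0.8755), a value that rested on Maf-KO gut replicate 2 (0.0020 without it). Gapdh (log2 0.025, SE 0.177, adjusted p 0.985) and Hif1a (log2 -0.061, SE 0.216, adjusted p 0.976) were close to 0. The acinar genes, present in WT gut and at most 2.23 CPM in Maf-KO gut, were the markers that moved most with genotype there, and their part was not tested. None of the pathway genes of the lists above was called either.

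In spleen, 0.0151% of all genes (2 of 13214) were called and none of the 35. At an unadjusted p under 0.05 none of the 35 passed, beside 376 of all genes, and DESeq2 and limma-voom called none of them. All 35 had overlapping WT and Maf-KO libraries, while 7.51% of all genes tested did not overlap. The median log2 fold change was -0.026, beside -0.0064 over all genes. The 4 with the smallest p were Pfkfb2 (log2 -0.44, SE 0.235), Hk3 (-0.99, SE 0.654), Eno1 (-0.15, SE 0.127) and Pdk1 (-0.34, SE 0.284). Pfkfb2 was at 10.5, 6.08 and 7.12 CPM in WT and 5.20, 5.84 and 6.33 CPM in Maf-KO spleen, where only WT replicate 1 stood apart. Hk3 was at 1.08, 2.86 and 1.17 CPM in Maf-KO spleen, below the 6.55 CPM of WT replicate 3 and around the other WT values. Slc2a1, Slc2a3, Hk2, Pfkp, Gapdh, Ldha and Hif1a had log2 values of 0.0082 (SE 0.130), 0.12 (SE 0.168), 0.15 (SE 0.234), 0.056 (SE 0.102), -0.17 (SE 0.150), 0.030 (SE 0.108) and -0.13 (SE 0.177). The adjusted p of each of these genes was 0.9993.

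**Figure D5:**
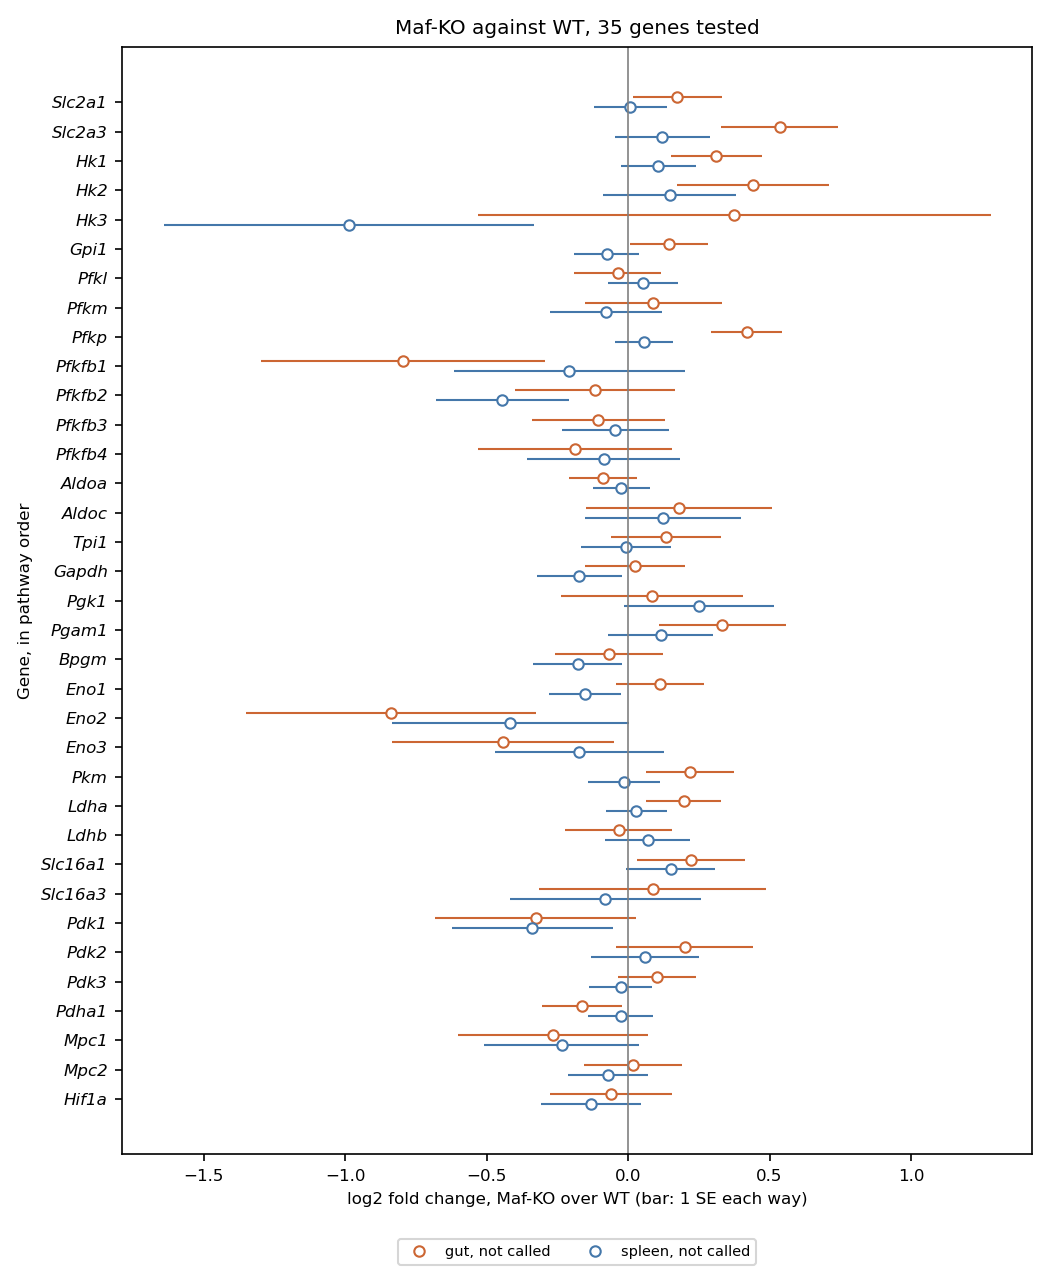
Log2 fold change of Maf-KO over WT for 35 genes in pathway order, in gut (orange) and spleen (blue), with bars of 1 SE each way. No gene passed an adjusted p of 0.05, and Pfkp (0.42) and Slc2a3 (0.54) in gut lie farthest from 0 relative to their SE.

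Whether the effect of Maf loss differed between gut and spleen, or equally the tissue difference between genotypes, was tested as an interaction. It called 0% of all genes in edgeR, and so none of the 35. At an unadjusted p under 0.05, 422 of all genes and 1 of the 35 passed, while DESeq2 called 8 genes and limma-voom 0, none of them among the 35. The gene was Pfkp, whose effect of Maf-KO was larger in gut by log2 0.36 (SE 0.161, unadjusted p 0.0480). Slc2a3 (log2 0.41, SE 0.266), Eno1 (0.27, SE 0.201) and Gpi1 (0.22, SE 0.179) came next. Slc2a1, Hk2, Gapdh, Ldha, Pdk1 and Hif1a had 0.17 (SE 0.203), 0.29 (SE 0.356), 0.20 (SE 0.232), 0.17 (SE 0.170), 0.011 (SE 0.455) and 0.069 (SE 0.279). The adjusted p of all of them was 0.9999. Hence the genes called between gut and spleen in Maf-KO and not in WT, such as Pfkp, Slc2a3 and Pkm, were not shown to differ between the genotypes.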

How the data were processed

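RNA of sorted Tregs was sequenced in 10 libraries, after TruSeq library preparation per the labels. The deposited table holds raw read counts per gene made by the authors, and a log2 file per library gives FPKM on the log2 scale for 12252 genes. GRCm38 and mm10 are the builds, and limma, Subread and featureCounts the tools, that appear in the submitters' processing notes. How strand and multi-mapping reads were treated is not given in the sources used here.

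Testing was done with edgeR 4.0.16 in R 4.3.3. After filterByExpr on the 4 groups (minimum count 10, minimum total 15) and TMM scaling, all 10 libraries entered 1 quasi-likelihood fit with 4 group coefficients. Each of 5 contrasts was tested two-sided, with Benjamini-Hochberg adjustment over 13214 genes and a threshold of 0.05. The SE is the log2 fold change divided by the square root of F. The edgeR fit was tested on simulated counts with large changes between WT gut and WT spleen only. Smaller changes, the other contrasts and the other steps were not simulated. The 36 genes, the other lists and the rules were chosen with earlier results of these data known. Values in every library were given for Slc2a1, Slc2a3, Hk2, Pfkp, Gapdh, Ldha, Pdk1 and Hif1a, for up to 8 called genes of the group per direction in each tissue comparison by adjusted p, and for the 4 with the smallest unadjusted p where none was called. Up to 2 called genes per direction of each other list were named. Rheb, Myc and Pgk2 fall outside that rule and were named after their values were seen.

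Alternatives were DESeq2 1.42.0 (size factors, or its own test), limma 3.58.1 (voom, or trend on the log2 values), no TMM factors, no filter, the groups alone, replicate blocks and leaving out each library. Sample titles carry a number that 4 gut and spleen pairs share. Deviations of these pairs from their group means correlated at 0.296 to 0.41. Between libraries of different groups with unlike numbers the correlations ran from -0.41 to 0.275. In a gut group of 2 libraries the deviations mirror each other, so these values are not independent. The labels do not say what the number stands for, and it entered as a block in alternatives only. Intervals for 0 counts (3 counts of the total) cover counting error only. Libraries of a group differed by 13.9 to 32.6 in chi-square per degree of freedom, and none was a repeat of another. There were 852 entries without a symbol, which stayed in the totals. RefSeq windows and names are of GRCm38.p6, whose table held 25275 of the 27179 identifiers.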

Additional observations from a re-analysis of the deposited data

How the results depend on the processing

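Leaving out each library in turn gave 7 to 13 called genes for gut against spleen in WT and 11 to 19 in Maf-KO, and 0 to 0 in both genotype comparisons and in the interaction. Where this left a group with 1 library, that library was assumed to vary like the others, and fewer samples alone reduce calls. With the title number as a random replicate block in limma-voom, 20 genes were called in WT and 22 in Maf-KO, against 13 and 19. With it as a fixed replicate block in edgeR there were 19 and 20, and 12 of the 13 and 19 of the 19 calls were kept. The numbers of calls over all genes moved by more than 1.5 times in gut between genotypes (20 in edgeR, 112 in DESeq2, 74 without a filter, 33 in limma-voom, 42 with the random block and 9 with the replicate number as a block, and 4 without either Maf-KO gut library) and in spleen (2, 18, 12, 0, 0 and 2), but no alternative called any of the 35 genes there.

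Changes of sign were looked up only for the genes named by the rule above in each comparison. Those values that changed sign were uncalled in both settings, and the cause was not tested. Most were near 0, but Pdk1 was not: its log2 was -0.33 between genotypes in gut, and its interaction reached -0.409 without Maf-KO gut replicate 3. For Maf-KO against WT in gut, the replicate number as a block gave log2 -0.048 for Gapdh and 0.0024 for Hif1a, and the random block -0.012 and 0.0335. In spleen, Slc2a1 was at -0.0105 without TMM factors and -0.0146 on log2 FPKM. In gut against spleen in WT, Ldha was at -0.114 without TMM factors and -0.0965 on log2 FPKM. The interaction of Pdk1 was -0.0019 in limma-voom, -0.0071 on log2 FPKM, -0.234 with the fixed block and -0.127 with the random block. Leaving out libraries gave ranges of -0.047 to 0.112 (Gapdh), -0.115 to 0.0025 (Hif1a) and -0.747 to 0.0020 (Pdk1) in gut. In spleen the ranges were -0.0854 to 0.0931 (Slc2a1), -0.0443 to 0.261 (Slc2a3), -0.0211 to 0.1095 (Pfkp), -0.273 to 0.0856 (Hif1a), -0.0067 to 0.0743 (Ldha) and -0.0355 to 0.346 (Hk2). For the interaction they were -0.409 to 0.367 (Pdk1) and -0.148 to 0.2105 (Hif1a). Isozyme shares depend on gene length: by counts, the mean share of Pdk1 in WT gut was 51.8% and not 29.9%. With 2 gut libraries per genotype, changes of the size seen for Pfkp and Slc2a3 between genotypes were not called.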
